A study of Rattus norvegicus with 4 samples.

Results

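The genes described here are 9 members of the NF-kB system in the rat adrenal medulla, the inner part of the adrenal gland: the subunit genes Nfkb1, Nfkb2, Rela and Relb, the inhibitor genes Nfkbia, Nfkbib and Tnfaip3, the atypical inhibitor Bcl3, and the receptor-associated kinase Irak2. They were taken by name, with earlier results of these data known. Every probe set (a group of short probes that reports on a transcript) annotated to one of them and to no other gene was kept. This gave 11 probe sets out of 31042 (9 of 14217 named genes), 3 for Bcl3 and 1 for each of the other 8 genes. Total RNA had been hybridised to 4 single-colour oligonucleotide arrays, 2 from unstressed rats (Rattus norvegicus) and 2 from rats immobilized for 2 h, a standard stressor in rodents. The labels give no strain, age or sex, and do not say how soon after immobilization the tissue was taken or whether RNA from several rats was pooled. Nothing states that a group's arrays are from different animals; the p-values therefore reflect the spread among these samples only, which could be technical. The values are the deposited linear intensities, and the arrays are called unstressed 1 and 2 and immobilized 1 and 2 in accession order, which pairs nothing.

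NF-kB factors are dimers of Rel family proteins that bind a shared DNA motif. In resting cells they are held in the cytoplasm by inhibitor proteins of the IkB family; receptors for interleukin-1, tumour necrosis factor and microbial products switch on a kinase that marks IkB for destruction, and the freed dimers enter the nucleus. Among the genes that NF-kB is known to switch on are those of some of its subunits and of its own inhibitors. The induced inhibitors make the system self-limiting. Most of its regulation takes place on proteins, which an RNA array does not measure.

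Sequences from RefSeq (GRCr8) are shown because the promoters of NF-kB genes themselves can carry the motif that NF-kB binds. Windows of 300 bases, from 250 before to 50 after each gene's start, were found for 7 of the 9 genes; the 2 without an entry are Relb and Irak2. The NF-kB consensus motif was searched by name on both strands and matched in 5 of these 7 promoters, against 1400 of all 33469 promoters of the same length, or 4.18%. Rela and Nfkbib are the 2 without a match. The promoter of Tnfaip3 (chr1:15543980-15544229, minus strand) holds 3 matches that do not overlap each other, and that of Nfkbia (chr6:78597073-78597322, minus strand) holds 1, at 31 to 22 bases before the start. For these 2 genes the 250 bases before the start are given, 5′ to 3′ on the gene's strand, with the matches in capitals.
Tnfaip3: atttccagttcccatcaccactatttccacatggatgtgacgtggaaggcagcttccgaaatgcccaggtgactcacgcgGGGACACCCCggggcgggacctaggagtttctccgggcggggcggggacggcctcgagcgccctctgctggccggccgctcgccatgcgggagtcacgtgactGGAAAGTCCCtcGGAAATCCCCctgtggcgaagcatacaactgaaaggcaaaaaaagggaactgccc
Nfkbia: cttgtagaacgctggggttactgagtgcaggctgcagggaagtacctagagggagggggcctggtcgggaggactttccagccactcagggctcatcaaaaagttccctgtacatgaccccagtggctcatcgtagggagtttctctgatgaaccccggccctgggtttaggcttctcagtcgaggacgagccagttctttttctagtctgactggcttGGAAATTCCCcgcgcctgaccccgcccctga

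For the other 3 genes the match itself is given with 10 bases on either side. It lies at 38 to 29 bases before the start in Bcl3 (chr1:88613574-88613603, minus strand), at 20 to 11 before it in Nfkb2 (chr1:255108344-255108373, plus strand), and at bases 4 to 13 of the transcript in Nfkb1 (chr2:226805440-226805469, minus strand).
Bcl3: tcggcggcagGGGAAGTCCCgcagcccggc
Nfkb2: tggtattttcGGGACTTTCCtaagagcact
Nfkb1: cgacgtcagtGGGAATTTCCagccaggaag
A core of the cAMP response element, TGACGT, was searched in the same windows on both strands. It matched in 2 of the 7, Tnfaip3 and Nfkb1, against 2658 of the 33469 promoters, or 7.94%, and overlapped none of the NF-kB matches. A match is a description of the letters and not evidence of binding.

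All 11 probe sets passed the filter on dim signals, which kept 18625 probe sets. Of the 11, 9 rose and 0 fell past limma's threshold (an adjusted p under 0.05, by Benjamini-Hochberg), and 2, those of Relb and Nfkbia, did not pass. At an unadjusted p under 0.05, 10 were higher and 0 lower. Over all tested probe sets 31.1% were called, 11.7% as rises and 19.4% as falls. Without immobilized 2 the 9 rises became 3, and without immobilized 1 they became 6, while the 2180 rises over all tested probe sets became 785 and 973. By gene, with the brightest probe set standing for each, 7 of the 9 genes rose and 0 fell, against 11.2% and 21.8% of 10320 genes. The median log2 change of the 9 genes was 0.88, and that of all genes tested was -0.14. Because the 9 genes were chosen with earlier results of these data known, these shares and medians are descriptions and not a test. Unstressed and immobilized readings were fully separate for each of the 11 probe sets, as they were for 67.8% of all tested probe sets. In bulk tissue, a change in the number of cells that make a transcript and a change in its amount per cell cannot be told apart.

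The readings of the 11 probe sets ran from 652 to 19331, above the highest reading, 257, of the array's 27 control probe sets for Bacillus transcripts. Log2 changes below are differences of log2(intensity + 16), immobilized minus unstressed, with the SE and 95% interval of limma's moderated fit on 2 arrays per group. The median change over all tested probe sets was -0.12, so each change stood 0.12 higher relative to that median than relative to 0.

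**Figure D1:**
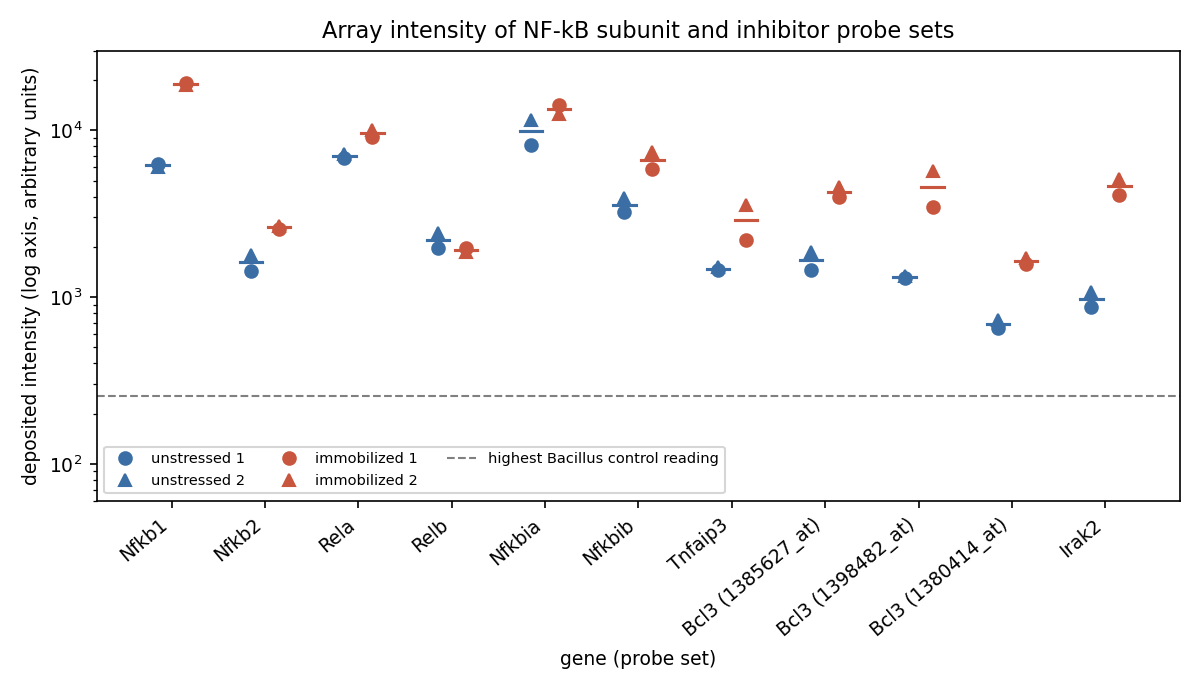
Deposited intensity (log axis) of the 11 probe sets on each array. Circles and triangles are arrays 1 and 2 of a group, blue for unstressed and red for immobilized, short bars are group means, and the dashed line is the highest Bacillus control reading, 257. The pairs of points are farthest apart between groups for Irak2, Nfkb1 and Bcl3, and nearly meet for Relb.

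Nfkb1 encodes the precursor of a subunit that binds DNA but has no activation domain of its own. Its probe set read 6318 and 6057 without stress and 19331 and 18765 after immobilization. Both immobilized readings were about 3 times the unstressed ones, and the arrays of each group lay close together. The log2 change was 1.62 ± 0.12 (SE, n = 2 per group), a fold of 3.07 (adjusted p = 2.74e-04 in limma). Nfkb1 kept its call under each of the 14 alternatives tried, and its change was 1.59 to 1.65 with any 1 array left out. Of the 18625 tested probe sets, 520 had a higher log2 change.

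Nfkb2 encodes the precursor of the subunit used in the noncanonical branch of the pathway. It read 1430 and 1797 without stress and 2559 and 2684 after immobilization, so both immobilized readings were higher. This was a log2 change of 0.70 ± 0.19, with an interval of 0.25 to 1.15 and an adjusted p of 0.0313 in limma. Rela encodes the main transactivating subunit, the usual partner of the Nfkb1 product. It read 6806 and 7207 against 9114 and 10026, a log2 change of 0.45 ± 0.12 with an interval of 0.16 to 0.74 (adjusted p = 0.0331 in limma). These 2 calls were close to the threshold. Both were lost without unstressed 1 (adjusted p = 0.0553 for Nfkb2 and 0.0622 for Rela in limma), without immobilized 1 (0.141 and 0.109) and without immobilized 2 (0.178 and 0.208). That of Rela was also lost without the filter (0.0542) and without the intensity trend (0.0782).

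Relb encodes the partner of the processed Nfkb2 product. It read 1976 and 2427 without stress and 1969 and 1856 after immobilization. The highest immobilized reading lay just under the lowest unstressed one. The log2 change was -0.19 ± 0.19, with an interval of -0.64 to 0.25 (adjusted p = 0.466 in limma), and ran from -0.34 to -0.045 over the 14 alternatives. Relative to the median of all tested probe sets it was -0.074. The interval leaves out a rise of the size seen for Nfkb2. The difference between the 2 changes was not tested.

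Nfkbia encodes IkB-alpha, the inhibitor that NF-kB is known to induce within a short time of its own activation. It read 8196 and 11521 without stress and 14254 and 12511 after immobilization. Its unstressed arrays differed by 0.49 on the log2 scale, more than those of any other of the 11 probe sets. Its log2 change, 0.46 ± 0.18, had an interval of 0.025 to 0.89 and did not pass (adjusted p = 0.1002 in limma). It did pass after each array was centred on its median (0.60, adjusted p = 0.0499 in limma) and without unstressed 2 (0.70, adjusted p = 0.0082), whereas without unstressed 1 it was 0.21 (adjusted p = 0.352). The size of the change thus varied with which unstressed array was used.

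Nfkbib encodes IkB-beta, a second inhibitor of the same family. It read 3220 and 3922 against 5828 and 7373, and its lowest immobilized reading stood well above its highest unstressed one. The log2 change was 0.88 ± 0.17, a fold of 1.84 (adjusted p = 0.0103 in limma). Leaving out immobilized 2 ended the call (0.71, adjusted p = 0.111). Tnfaip3 encodes a ubiquitin-editing enzyme that shuts down signalling upstream of the IkB kinase. It read 1459 and 1508 without stress and 2203 and 3588 after immobilization. The unstressed arrays lay close together and the immobilized arrays were apart by 0.70 on the log2 scale. Its log2 change was 0.92 ± 0.25 (adjusted p = 0.034 in limma), and the call was lost without immobilized 2 (0.57, adjusted p = 0.201) and without the filter (adjusted p = 0.0511).

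Bcl3 encodes a nuclear IkB protein that binds homodimers of the Nfkb1 and Nfkb2 products and can turn them into activators. All of its 3 probe sets rose. The brightest, 1385627_at, read 1458 and 1870 without stress and 3994 and 4585 after immobilization, a log2 change of 1.37 ± 0.19 (adjusted p = 0.0029 in limma). Probe set 1398482_at read 1299 and 1345 against 3473 and 5671, a change of 1.74 ± 0.25 (adjusted p = 0.00337). Probe set 1380414_at, the dimmest of the 11, read 652 and 726 against 1584 and 1708, a change of 1.24 ± 0.21 (adjusted p = 0.00605). Immobilized readings were more than 2 times the unstressed ones in each case. The 3 intervals overlap, and the differences between the probe sets were not tested. Probe set 1398482_at kept its call with each array left out in turn. Leaving out immobilized 2 ended the calls of 1385627_at (adjusted p = 0.0534 in limma) and 1380414_at (0.072), and leaving out immobilized 1 ended that of 1380414_at (0.0553).

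Irak2 encodes a kinase-like adaptor that carries the signal from interleukin-1 and Toll-like receptors towards the IkB kinase. It read 866 and 1076 without stress and 4093 and 5122 after immobilization. Its lowest immobilized reading was 1.91 log2 units above its highest unstressed one, the widest gap among the 11 probe sets. The log2 change was 2.23 ± 0.20, a fold of 4.68, with an interval of 1.74 to 2.71 (adjusted p = 7.31e-04 in limma). The call was kept under all 14 alternatives, with a change of 2.07 to 2.39, and 281 tested probe sets had a higher change. Of the other genes of this kinase family, Irak1 has 2 tested probe sets, and neither passed. The brighter had a change of -0.082 (adjusted p = 0.634 in limma), or 0.058 after median centring, and the other one of -0.57 ± 0.21 (adjusted p = 0.088). Irak3, a family member known as an inhibitor of the same receptors, lay under the filter and read 909 and 1110 without stress and 214 and 353 after immobilization, without overlap. Irak4 lay under it as well, at 379 and 308 against 458 and 444.

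**Figure D2:**
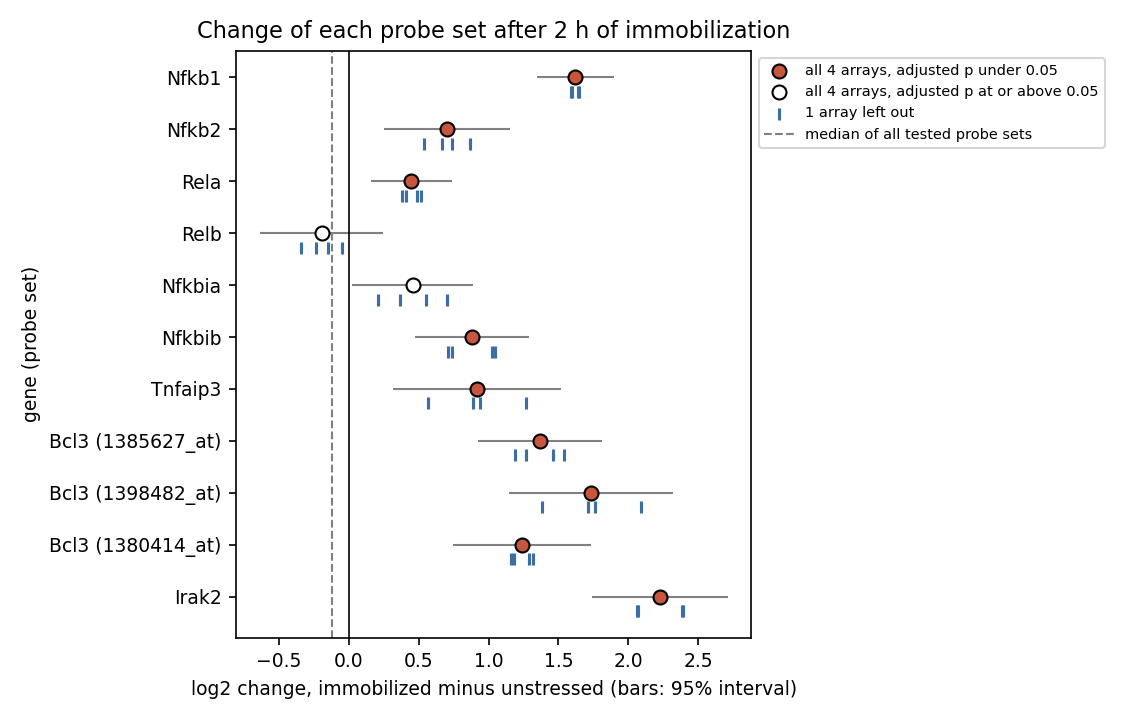
Log2 change (immobilized minus unstressed) of each probe set with its 95% interval, filled where the adjusted p was under 0.05. Blue ticks under each point are the changes with 1 array left out, and the dashed line is the median of all tested probe sets, -0.12. Only the interval of Relb includes 0, and the ticks of Tnfaip3, Nfkbia and Bcl3 probe set 1398482_at spread the most.

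In order of log2 change by gene, Irak2 came first, then Nfkb1 and Bcl3, then Tnfaip3, Nfkbib and Nfkb2, then Nfkbia and Rela, and Relb last. The 95% intervals of each pair of neighbours in this order overlap, and the differences between neighbours were not tested. On these arrays the changes of the subunit genes differed in size. On the log2 scale the ratio of Nfkb1 to Rela, taken within each array, was 1.17 higher in the immobilized group, and 1.01 to 1.33 higher over the 4 pairings of an immobilized with an unstressed array. The ratio of Nfkb1 to Nfkb2 was 0.92 higher, with pairings from 0.67 to 1.17, and that of Nfkb1 to Relb was 1.81 higher, from 1.62 to 2.01. Among the IkB genes, the ratio of Nfkbib to Nfkbia was 0.42 higher, from 0.056 to 0.79. That shift was smaller than the gap of 0.53 in this ratio between the 2 immobilized arrays. The ratio of Bcl3 to Nfkbia was 0.91 higher, from 0.65 to 1.17. These ratios describe the 4 arrays, whose pairings share arrays, and give no amounts of one transcript relative to another. The smallest p that an exact permutation test of 2 arrays against 2 allows is 0.333, and none was run on these ratios.

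Among the other genes of the pathway, some rose and some fell. A list of 59 genes held receptors, ligands, adaptors, kinases, ubiquitin enzymes and further IkB and Rel genes. Of its 43 tested genes 9 rose and 12 fell, or 20.9% and 27.9%, against 11.2% and 21.8% of all genes tested. The median log2 change of the list was -0.18, and that of all genes was -0.14. Otud7b, counted as a rise (0.77), and Tab3, counted as a fall (-0.66), each had a second probe set that did not pass (-0.15 and -0.14). Rises were led by Ube2n, Nfkbiz, Traf6 and Il1r1. Ube2n, the ubiquitin-conjugating enzyme that works with Traf6, read 7537 and 6913 against 18083 and 22851, a log2 change of 1.49 ± 0.15, while its second, dimmer probe set had 0.82 ± 0.27 and did not pass (adjusted p = 0.0566 in limma). Nfkbiz, another nuclear IkB, read 763 and 573 against 1595 and 1707 (1.30 ± 0.23). Traf6, the ubiquitin ligase downstream of the Irak proteins, read 4914 and 2840 against 7963 and 9832 (1.24 ± 0.26), and its 4 probe sets ranged from 0.52 to 1.24, with 3 of them called. Il1r1, the signalling receptor of interleukin-1, read 1154 and 1158 against 2421 and 2817 (1.16 ± 0.19). All 4 were picked among called genes with non-overlapping groups, and their adjusted p was 0.00101 to 0.0129 in limma.

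Falls were led by Tradd, Traf1, Traf3 and Tab1. Tradd, the adaptor that binds the tumour necrosis factor receptor, read 2999 and 3816 without stress and 833 and 660 after immobilization, a log2 change of -2.17 ± 0.22. Traf1, an adaptor gene that NF-kB is known to induce, read 1136 and 1460 against 224 and 369 (-2.10 ± 0.30), and its first immobilized reading is no brighter than the highest Bacillus control. Traf3, an inhibitor of the noncanonical branch, read 7333 and 6513 against 2022 and 2666 (-1.57 ± 0.18). Tab1, a partner of the kinase Map3k7, read 5270 and 4767 against 1848 and 1732 (-1.48 ± 0.15). Their adjusted p was 0.00107 to 0.00352 in limma. With each array left out in turn, 1 of the 9 rises (Ube2n) and 4 of the 12 falls (these 4 genes) kept their calls throughout. Leaving out immobilized 1 gave 2 rises and 4 falls, and leaving out immobilized 2 gave 1 and 4. After median centring it had 11 rises and 7 falls.

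By role, a grouping made after the values were seen, 2 of 6 tested receptors rose and 1 fell. Tnfrsf1a, the main receptor of tumour necrosis factor, had a log2 change of 0.73, and Ltbr, a receptor of the noncanonical branch, of -0.62. Of 14 tested adaptors 3 rose and 4 fell, of 8 kinases and their partners 1 rose and 2 fell, and of 13 ubiquitin enzymes and their partners 2 rose and 5 fell. Over all genes 11.2% rose and 21.8% fell, and no role was tested against them. The IkB kinase gene Chuk rose by 0.64 ± 0.16 (adjusted p = 0.0227 in limma), while Ikbkb, its partner, had a change of 0.094 (adjusted p = 0.653). The call on Chuk was lost without immobilized 1 (adjusted p = 0.106), without immobilized 2 (0.151) and without the trend (0.0533). Rnf31, Rbck1 and Sharpin, the subunits of the enzyme that builds linear ubiquitin chains, fell with log2 changes of -0.90, -0.58 and -0.49. Cyld, which removes such chains, had a change of -1.03. These 4 calls were lost without immobilized 1 (limma's adjusted p = 0.0511, 0.153, 0.0916 and 0.0555) and without immobilized 2 (0.114, 0.0726, 0.174 and 0.0588). Those on Tnfrsf1a and Ltbr were lost there too, and those on Rbck1 and Sharpin also after median centring. Of the ligands, Il1b had a change of 0.65 (adjusted p = 0.0687 in limma) and passed after quantile normalization (0.0471), median centring (0.0393) and without the trend (0.0283). Tnf lay under the filter, and all 4 of its readings, 204 to 252, are no brighter than the highest Bacillus control.

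**Figure D3:**
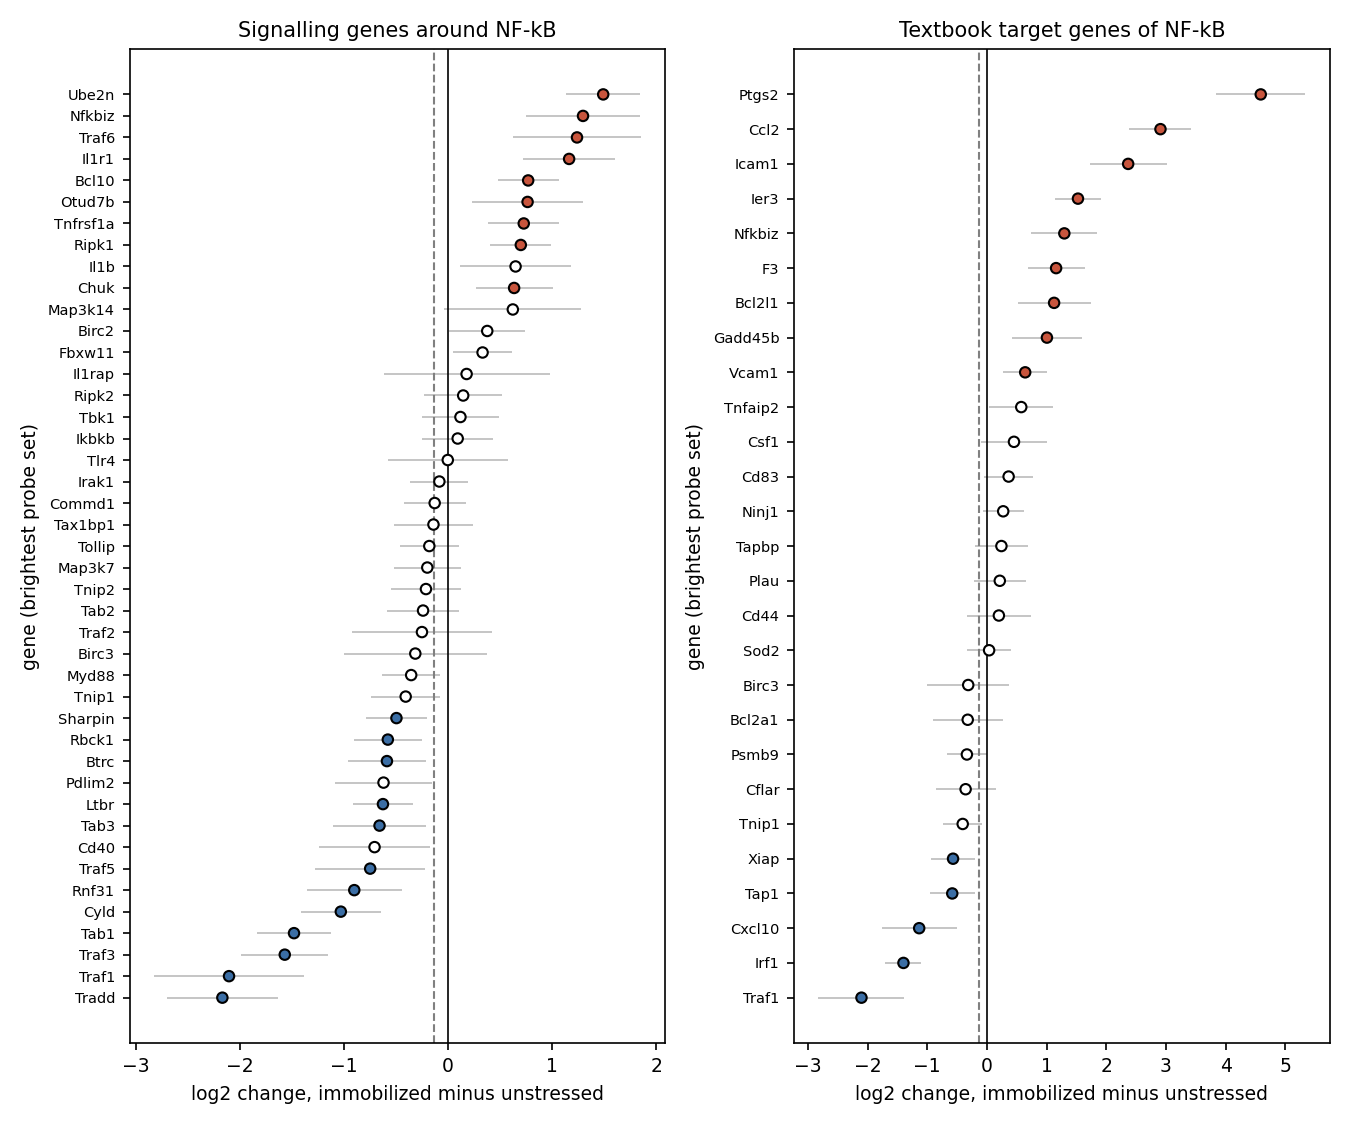
Log2 change (immobilized minus unstressed) with its 95% interval for the 43 tested signalling genes and the 27 tested target genes, each by its brightest probe set. Red points rose, blue points fell and white points did not pass an adjusted p of 0.05, and the dashed line is the median of all genes, -0.14. Signalling genes spread to both sides, from Ube2n at 1.49 to Tradd at -2.17, and target genes from Ptgs2 at 4.59 to Traf1 at -2.10.

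Of 36 textbook target genes of NF-kB, all measured, 27 were tested: 9 rose and 5 fell, or 33.3% and 18.5%, against 11.2% and 21.8% of all genes tested. The share of falls was thus no higher than over all genes. The list's median log2 change was 0.24, against -0.14 over all genes. A dimmer probe set of Cflar (1.01) and another of Csf1 (0.87) were called as rises. The brightest ones, counted here, did not pass (-0.36 and 0.45), nor did the remaining probe sets of Csf1. Both lists, like the members, were chosen with earlier results of these data known. In the list, 4 genes also stand among the signalling genes. Many of these genes are also known to respond to other signals. Icam1, an adhesion molecule for leukocytes, read 1172 and 1439 without stress and 5125 and 8939 after immobilization. Ccl2, a chemokine for monocytes, read 516 and 508 against 3425 and 4548. Ier3, an early survival gene, read 8287 and 11043 against 27425 and 27755, a log2 change of 1.53 ± 0.16. Ptgs2, the inducible cyclooxygenase, read 156 and 111 against 2751 and 4566, and its unstressed readings are no brighter than the highest Bacillus control. Unstressed readings of Ptgs2 and Ccl2 lay under the filter's level of 543.8, so both were tested only through their immobilized readings. Traf1, which fell, was tested only through its unstressed readings. These 4 genes were picked as the largest called rises of the list with non-overlapping groups.

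Besides Traf1, the largest falls among the targets were those of Irf1, Cxcl10 and Tap1. Irf1, an interferon-related transcription factor, read 13043 and 12369 against 4519 and 5116. Cxcl10, a chemokine for T cells, read 6512 and 11180 against 4440 and 3386, and Tap1, a peptide transporter of antigen presentation, read 3336 and 3022 against 2194 and 2044, a log2 change of -0.58 ± 0.16. The calls on Cxcl10 and Tap1 were lost without immobilized 1 (limma's adjusted p = 0.0749 and 0.131) and without immobilized 2 (0.154 and 0.188), and that on Tap1 also after quantile normalization (0.0769), after median centring (0.0837) and without unstressed 1 (0.0656). Sod2, a mitochondrial antioxidant enzyme often used as a readout of NF-kB, did not pass, at 0.037 (adjusted p = 0.878 in limma). Birc3, an inhibitor of cell death, had -0.31 (adjusted p = 0.448), and Tnip1, which works with the product of Tnfaip3, had -0.41 (adjusted p = 0.0661). Of the 9 targets under the filter, Il6 read 109 and 151 against 318 and 385, and the chemokine Cxcl1 read 206 and 234 against 455 and 1018. In both cases the unstressed readings were within the range of the Bacillus controls. Cxcl2 and Nos2 were also higher on both immobilized arrays. Lif was lower on both, at 296 and 314 against 245 and 242, with the immobilized readings within that range. For Ccl20, Csf2, Mmp9 and Sele the groups overlapped. Leaving out immobilized 1 gave 5 rises and 2 falls, leaving out immobilized 2 gave 4 and 2, and median centring gave 3 falls.

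NF-kB genes are expressed in many cell types, so markers of the cells that the samples could hold were read as well. The 6 chromaffin cell genes, which mark the cells of the medulla, summed to 283086 and 264128 without stress. On immobilized 1 and 2 they summed to 353081 and 245616. The 5 measured genes of the adrenal cortex were also bright, summing to 243208 and 275154 against 255749 and 186105. Each of these 11 genes except Cyp11b1 read higher on immobilized 1 than on immobilized 2. None of the 11 was called in limma, which with that spread does not show that they were unchanged. At an unadjusted p under 0.05, 1 cortical gene was lower and no other passed. It was Cyp11b1, at 23128 and 35901 against 18432 and 18635. The median log2 change was -0.27 for the 5 cortical genes and 0.068 for the 6 chromaffin genes, against -0.14 over all genes. Cyp11b1 (-0.64), Cyp11a1 (-0.35) and Cyp21a1 (-0.27) were lower on both immobilized arrays, while the groups overlapped for Hsd3b1 (-0.24) and Star (0.073). Of the chromaffin genes only Pnmt (0.36) had groups without overlap, and it was higher. For macrophages 7 markers summed to between 22738 and 26997 against between 26628 and 27193, with 0 of 6 tested genes called in limma, also at an unadjusted p under 0.05, and Itgam within the range of the Bacillus controls. For neutrophils, whose 3 measured markers all lay under the filter, the sum was 321 and 466 against 1412 and 1388. In that list S100a8 read 14.8 and 82.5 against 375 and 341, and S100a9 read 122 and 180 against 905 and 839. The unstressed readings of both were within the range of the Bacillus controls. Csf3r stayed within that range on all arrays, at 185 and 204 against 131 and 208, with overlapping groups. The 6 lymphocyte markers summed to between 1657 and 1840 against between 1924 and 2222. Among them Cd3g read 504 and 665 against 808 and 1002, and Cd2 and Ms4a1 were also higher on both immobilized arrays, while Cd3e was lower, at 460 and 458 against 338 and 298. Cd79b was lower too, and it and Cd3d were within the range of the Bacillus controls. Endothelial markers, 5 in all, summed to between 32121 and 40956 against between 29652 and 30361, with Flt1 called as a rise and Kdr as a fall. The lower sum came from the 2 brightest genes, Kdr, at 15830 and 22501 against 9781 and 12099, and Tek, at 11383 and 12215 against 9456 and 9328. Flt1, Pecam1 (2241 and 3873 against 4279 and 4288) and Vwf (1070 and 1097 against 1434 and 1360) were higher on both immobilized arrays, and the median log2 change of the 5 genes was 0.36. Of the 3 Schwann and sustentacular markers Gfap rose and S100b fell, for sums of 6817 to 7880 against 6159 to 7068, and of 6 fibroblast and pericyte markers Acta2 rose, for sums of 57493 to 77322 against 64555 to 77399. The sum of the neutrophil list was higher on both immobilized arrays through S100a8 and S100a9 and not through Csf3r. That of the lymphocyte list was also higher on both, and its genes differed in direction. The endothelial genes differed in direction as well. The part of these cells in the changes of the NF-kB genes was not tested.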

How the data were processed

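The authors deposited linear intensities for 31099 probe sets on 4 arrays; the way probes were summarised is not given in the sources used. The deposited intensity columns share a trimmed mean of 2501 (2% left out at each end, spread 0.00572%), so they were used as scaled. Leaving out 57 control probe sets left 31042. Values were turned into log2(intensity + 16), which understates changes of dim genes, and the 18625 probe sets whose mean log2 value reached the 40th percentile (intensity 543.8) were tested. Genes were named from GEO's platform annotation (20826 probe sets with 1 symbol, 436 with several, 9780 with none), updated by Entrez identifier (0 changed). A listed gene is represented by its brightest probe set.

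The comparison used R 4.3.3 and limma 3.58.1 (lmFit, eBayes with trend, 6.81 total degrees of freedom), two-sided, Benjamini-Hochberg over all tested probe sets, threshold 0.05; the fit was tested on simulated data. Alternatives were quantile normalization, median centring, offsets of 1 and 64, no filter or the 60th percentile, no trend, robust estimation, each array left out, a threshold of 0.10 and 1 probe set per gene. From the lists, the 4 largest called rises and falls with non-overlapping groups were named; other genes were picked with their values in view. The members and lists were chosen with earlier results of these data known. Figures used matplotlib 3.10.9. No sample column was left unused.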

Additional observations from a re-analysis of the deposited data

How the results depend on the processing

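Of 151 values of the 11 probe sets under alternatives, 135 kept their direction and side of the threshold, 14 lost the call, 2 gained it and 0 changed sign. The 9 rises became 3 to 10 with 1 array left out, the lowest without immobilized 2; falls stayed at 0. With an immobilized array left out, the spread comes from the unstressed pair alone. The alternative at a threshold of 0.10 used the main fit, so no call could be lost and no change could differ there. Over all probe sets, 2180 rises and 3619 falls became 785 to 2638 and 893 to 3800 with 1 array left out, and 1246 rises with 1 probe set per gene, where fewer features are tested. Median centring moved the rises' share: 2844 rose and 2497 fell. The signalling list had 1 to 10 rises and 4 to 12 falls with 1 array left out, and 7 falls after median centring. The target list had 4 to 10 rises and 2 to 5 falls, and 3 falls after centring. The marker lists, with 3 rises and 2 falls, had 2 to 5 and 0 to 3 with 1 array left out, 5 falls after quantile normalization, 1 fall after centring and without the trend, 5 rises without the filter and 4 falls at a threshold of 0.10. Changes that were not called changed sign for Irak1 (0.058 after centring), Birc3 (-0.67 to 0.044 with 1 array left out, above 0 without unstressed 2) and Sod2 (-0.083 to 0.157, below 0 without unstressed 1 or immobilized 1). The cause of the other shifts was not tested. No paired analysis was possible because the labels number no replicates within groups.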

Other observations

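Relb and Bcl3 lie near each other on chromosome 1 in the GRCr8 gene table, with 9 protein-coding genes between their starts. Bcl3 rose at all of its 3 probe sets and Relb did not pass. Of the 9 genes between them 7 were tested, and 0 rose and 0 fell at an adjusted p under 0.05 in limma (likewise 0 and 0 at an unadjusted p under 0.05), with log2 changes from -0.29 to 0.31. Over all genes tested 11.2% rose and 21.8% fell, and these 7 genes are too few to be set apart from those shares.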
